A study of Mus musculus with 14 samples.

Results

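B lymphocytes are circulating immune cells that recognise antigen through a surface antibody, the B cell receptor, and they are known for their high sensitivity to ionising radiation. The receptor is built from an immunoglobulin heavy chain (Ighm for IgM, Ighd for IgD) and a light chain (most often kappa, Igkc), and it signals through the paired chains Cd79a and Cd79b. Ms4a1 encodes the surface protein CD20, Cd22 an inhibitory co-receptor, Bank1 an adaptor protein of receptor signalling, and Pax5 the transcription factor that maintains B cell identity. A healthy heart holds a small number of B cells, most of them within its vessels.

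These 9 transcripts were followed in bulk RNA of whole mouse heart, by taking the rows with these gene names from a table of 54532 genes. The 14 libraries came from male C57BL/6J mice, 8 weeks old at irradiation, in the groups Control_1d and IRR_1d (n = 3 each) and Control_6w and IRR_6w (n = 4 each). Irradiated mice received a single 30 Gy dose of 60Co γ-rays to the front of the chest, with the rest of the body shielded by lead, and hearts were taken 1 day or 6 weeks later. Controls were unirradiated mice of the same strain, and each library held the heart of 1 mouse. The comparisons address what irradiation of the chest does to B cell RNA in the heart soon after the dose and later. Fewer B cells and less RNA per B cell cannot be told apart in bulk tissue, and B cells of the blood left in the heart are counted with those of the wall.

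Library totals ran from 13336746 to 16837265 counts. All 9 members passed the filter on low counts, although several were at or near 0 in some groups. Levels are given as CPM, the counts scaled to a common library total. For a member at 0 counts, 3 counts, about 0.2 CPM, is the level that counting error alone still allows.

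Of the 14 libraries, 3 held far more lymphoid RNA than the rest, and the results turn on them. The summed level of the 9 transcripts was 382.1 CPM in Control_1d replicate 1, 769.2 CPM in Control_6w replicate 3 and 1052 CPM in IRR_6w replicate 1, against 15.2 to 113.8 CPM in the other 11 libraries. Control_6w replicate 3 also stood apart by T cell markers (14 genes, summed level 4497 CPM against 7.20 to 70.1 CPM elsewhere) and thymocyte markers (10 genes, 3709 CPM against 0 to 39.5 CPM), none of the latter at 0. Lung epithelium markers (8 genes) were highest in the 3 libraries with high B cell RNA. IRR_6w replicate 1 held 496.3 CPM of them, most of it Scgb1a1, the club cell secretory protein, at 405.8 CPM. Control_6w replicate 3 held 33.0 CPM and Control_1d replicate 1 held 3.94 CPM, against 0 to 2.40 CPM in the other 11. IRR_6w replicate 1 also held the most red blood cell markers (6 genes, 74100 CPM against 1930 to 29370 CPM elsewhere) and the most atrial markers (3340 CPM, the next being IRR_1d replicate 3 at 2028 CPM). Control_6w replicate 3 and IRR_6w replicate 1 both held high fat markers (7 genes, 1309 and 2502 CPM), while IRR_1d replicate 3 held 766.5 CPM of them and the others at most 58.3 CPM. Heart muscle markers (8 genes) were lowest in Control_6w replicate 3 (5525 CPM) and IRR_6w replicate 1 (10170 CPM), against 16280 to 36570 CPM elsewhere. Control_1d replicate 1 had all 10 thymocyte markers at 0, where the other libraries of 1 day had 5 to 8 of them at 0. T cell markers (25.8 CPM against 7.20 to 13.8 CPM) and NK cell markers (8 genes, 7.75 CPM against 0.68 to 1.45 CPM) in Control_1d replicate 1 were the highest among the libraries of 1 day. The part that neighbouring tissue has in these levels was not tested. The members' results are therefore given with the 14 libraries and with the 11 that remain without these. That choice is not independent of the members, on which these libraries are the highest of their groups, so non-overlaps and p-values with 11 libraries are given as a description.

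**Figure D1:**
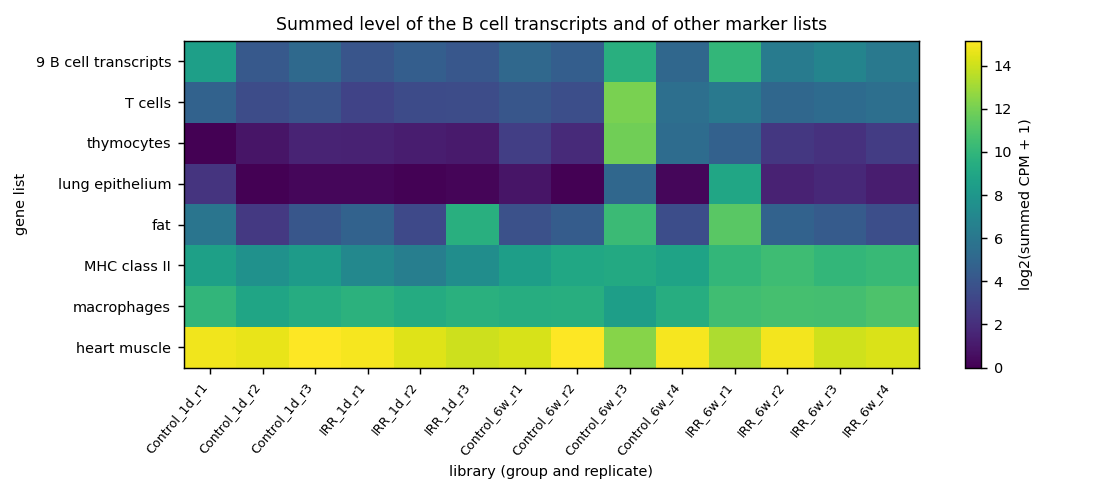
Summed level of each gene list, as log2(summed CPM + 1) by colour, in each of the 14 libraries (columns, by group and replicate). The members stood at 382.1, 769.2 and 1052 CPM in Control_1d replicate 1, Control_6w replicate 3 and IRR_6w replicate 1, with thymocyte markers high only in the second of these (3709 CPM) and lung epithelium markers highest in the third (496.3 CPM).

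A second feature also bears on the low values. Among genes with a median of 2 to 5 CPM in the other libraries, 30.7% had no count in Control_1d replicate 1, 21.6% in IRR_6w replicate 3 and 8.62% in IRR_6w replicate 4, against 0 to 1.98% elsewhere. Control_1d replicate 1 accordingly held 245.4 CPM of Ighm and 17.8 CPM of Ms4a1 with Cd79a, Cd22, Bank1 and Pax5 all at 0, a pattern the other libraries with high B cell RNA lacked. IRR_6w replicate 3 listed Cd22 and Pax5 at 0 with 11.4 CPM of Ms4a1. A 0 in these libraries is therefore not read as absence.

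Igkc was the member with the largest difference at 6 weeks among the 11 libraries, and the stretch its reads came from is shown for that reason. The kappa constant gene lies on chromosome 6 at 70726435 to 70726966 on the plus strand (mm10), as a single exon. Its first 300 bases, from 70726435 to 70726734 in the GENCODE transcript, are all constant region, and no part of them overlaps another annotated gene.
Igkc constant exon: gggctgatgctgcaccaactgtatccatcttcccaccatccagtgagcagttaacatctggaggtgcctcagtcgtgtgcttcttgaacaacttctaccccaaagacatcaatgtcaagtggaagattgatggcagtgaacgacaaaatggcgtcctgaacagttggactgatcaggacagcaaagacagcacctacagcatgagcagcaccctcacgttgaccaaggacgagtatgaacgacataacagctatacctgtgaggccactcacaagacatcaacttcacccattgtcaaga

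RefSeq promoters (GRCm38.p6) were found for 4 of the 9 members, Bank1, Pax5, Cd79a and Cd22. The promoters of Cd79a, the receptor's signalling chain, and Cd22, its inhibitory partner, are shown because each held 2 matches to the letters searched. Each window runs from 250 bases before to 50 after the RefSeq start. The search covered both strands for the octamer ATGCAAAT, an Ebf1 motif, the E-box CAGGTG and the Ets-type letters ACAGGAAGT, the E-box and Ets-type letters chosen after the sequences had been seen. Capitals mark the matches, which do not overlap each other. Cd79a lies at chr7:24897247-24897546 on the plus strand and Cd22 at chr7:30878979-30879278 on the minus strand. The deposited table starts Cd22 further upstream, at 30880342, so this window lies inside its gene row.
Cd79a promoter: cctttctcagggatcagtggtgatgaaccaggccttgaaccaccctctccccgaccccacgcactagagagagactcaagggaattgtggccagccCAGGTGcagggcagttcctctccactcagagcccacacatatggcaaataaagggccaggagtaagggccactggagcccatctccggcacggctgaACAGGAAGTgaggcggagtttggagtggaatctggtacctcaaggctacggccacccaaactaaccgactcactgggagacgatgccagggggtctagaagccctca
Cd22 promoter: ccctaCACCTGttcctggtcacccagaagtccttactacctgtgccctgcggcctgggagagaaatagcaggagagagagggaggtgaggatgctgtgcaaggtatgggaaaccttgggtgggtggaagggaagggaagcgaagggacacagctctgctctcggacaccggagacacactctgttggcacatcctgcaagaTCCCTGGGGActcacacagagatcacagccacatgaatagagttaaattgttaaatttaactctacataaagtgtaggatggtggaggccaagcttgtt

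The Cd79a window held 1 E-box and 1 Ets-type match, and the Cd22 window 1 Ebf1 and 1 E-box match. The Bank1 window held 1 E-box match. No octamer match was found in the windows of the 4 members, and the Pax5 window held none of these letters. Over all 32851 promoters in the table, 20.2% held the E-box letters, 1.74% the octamer, 1.03% the Ets-type letters and 0.904% the Ebf1 motif. These are matches of letters, and the data do not bear on whether a factor was bound.

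By group median, Ighm was the most abundant member per unit length in the unirradiated hearts at 1 day. In Control_1d replicate 1, however, Igkc stood above it (182.8 against 130.1 CPM per kilobase of gene model). Median levels as CPM per kilobase of gene model in Control_1d were 10.9 for Ighm, 5.43 for Igkc, 1.10 for Ighd, 0.986 for Cd79b and 0.332 for Bank1, and below 0.25 for the rest. In Control_6w the medians were 9.92 for Igkc and 9.07 for Ighm, which did not differ beyond their spread, and the remaining members lay between 0.0822 for Cd22 and 0.927 for Cd79b. In IRR_6w Igkc led with 72.1 CPM per kilobase and Ighm followed with 18.5. In the deposited coordinates (mm10), Ighm and Ighd are neighbours on the minus strand of chromosome 12, at 113418558 to 113422730 and 113406604 to 113416324, and Ms4a1 lies on the minus strand of chromosome 19 at 11249675 to 11266241. Cd22 and Pax5 share 9.5% and 8.6% of their exonic bases with genes on the opposite strand, and the other members share none.

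At 1 day the IgD heavy chain Ighd and the CD20 gene Ms4a1 were lower in every IRR_1d library than in any Control_1d library, while the other 7 members overlapped between the groups. None of the differences passed the adjusted edgeR test. Ighm stood at 245.4, 10.5 and 20.5 CPM in Control_1d and at 10.2, 14.04 and 10.7 CPM in IRR_1d. The groups overlapped, and replicate 1 alone lifted the control group (log2 fold change -2.77, SE 1.55, edgeR adjusted p = 1). Without the 3 libraries the value was -0.58 (SE 0.36). Ighd stood at 13.7, 1.02 and 2.08 CPM in Control_1d and at 0.18, 0.49 and 0.41 CPM in IRR_1d. Every irradiated library lay below every control library, an order that leaving out a library cannot undo (log2 fold change -3.76, SE 1.10, edgeR adjusted p = 1, with 11 libraries -2.25, SE 0.82).

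Ms4a1 followed the same order. Its levels were 17.8, 0.66 and 1.55 CPM in Control_1d and 0, 0.49 and 0.07 CPM in IRR_1d, so the groups did not overlap (log2 fold change -4.85, SE 1.45, edgeR adjusted p = 1). With 11 libraries the difference was -2.64 (SE 1.21). Igkc was at 97.3, 1.61 and 2.89 CPM in Control_1d and at 0.68, 4.17 and 0.34 CPM in IRR_1d, and the groups overlapped (-3.96, SE 1.96, with 11 libraries -0.46, SE 0.84). Cd79b was at 8.02, 0 and 1.41 CPM in Control_1d and at 0.18, 0.56 and 0.21 CPM in IRR_1d. Its difference was -3.05 (SE 1.43), and -1.20 (SE 1.27) with 11 libraries. Cd79a, Cd22 and Pax5 did not exceed 1.754 CPM in any library of 1 day. Their differences were -0.15 (SE 1.56), -2.74 (SE 2.13) and -2.09 (SE 1.88). Cd79a was at -0.74 (SE 1.43) with 11 libraries, and above 0 with limma-voom (1.16) and without Control_1d replicate 3 (4.74). Bank1, at 0 in Control_1d replicate 1 and between 1.88 and 3.96 CPM in the other 5 libraries, was not called (0.23, SE 1.08). With 11 libraries its difference turned to -0.36 (SE 0.68).

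At 1 day none of the 9 members was a DEG (fold above 2 or below 0.5 and adjusted p under 0.05), against 0.0249% of all 16034 genes tested, 4 in number. At an unadjusted edgeR p under 0.05 with the same fold limits, 2 members (Ighd and Ms4a1) were lower, against 0.674% of all genes. Those 2 were also the members whose groups did not overlap, with all irradiated libraries lower, against 1.97% of all genes. On TMM-scaled CPM, an alternative chosen after seeing the data in which each library total is corrected for composition, the same 2 did not overlap, against 4.15% of all genes, and with 11 libraries Cd22 and Pax5 joined them (8.49% of all genes). With 3 libraries per group an exact permutation test cannot go below p = 0.1, and both reached that value. The median log2 fold change of the 9 was -2.77, beside 0.06 over all genes. With the 11 libraries it was -1.20, beside 0.01, and the same 2 members passed the unadjusted limit (0.877% of 15969 genes). DESeq2 on all libraries called Ms4a1 at 1 day, against 0.191% of all genes. On the 2 groups of 1 day alone and with an unadjusted p, it called Ms4a1, Ighd, Ighm and Cd79b, against 3.1% of all genes. Markers of other blood cells were read beside these values. The red blood cell list had fitted values below 0 in 6 of 6 genes, none called, with a median of -1.54 (-1.80 with 11 libraries). Its summed level was 5299, 2117 and 29370 CPM in Control_1d and 5788, 3098 and 10640 CPM in IRR_1d, and these ranges overlapped. T cell genes were below 0 in 11 of 14, and in 11 of 13 with 11 libraries, none called. Neutrophil genes were below 0 in 4 of 6 (median -0.80), and above 0 in 4 of 6 with 11 libraries (median 0.89), none called. Their part in the members' values was not tested.

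**Figure D2:**
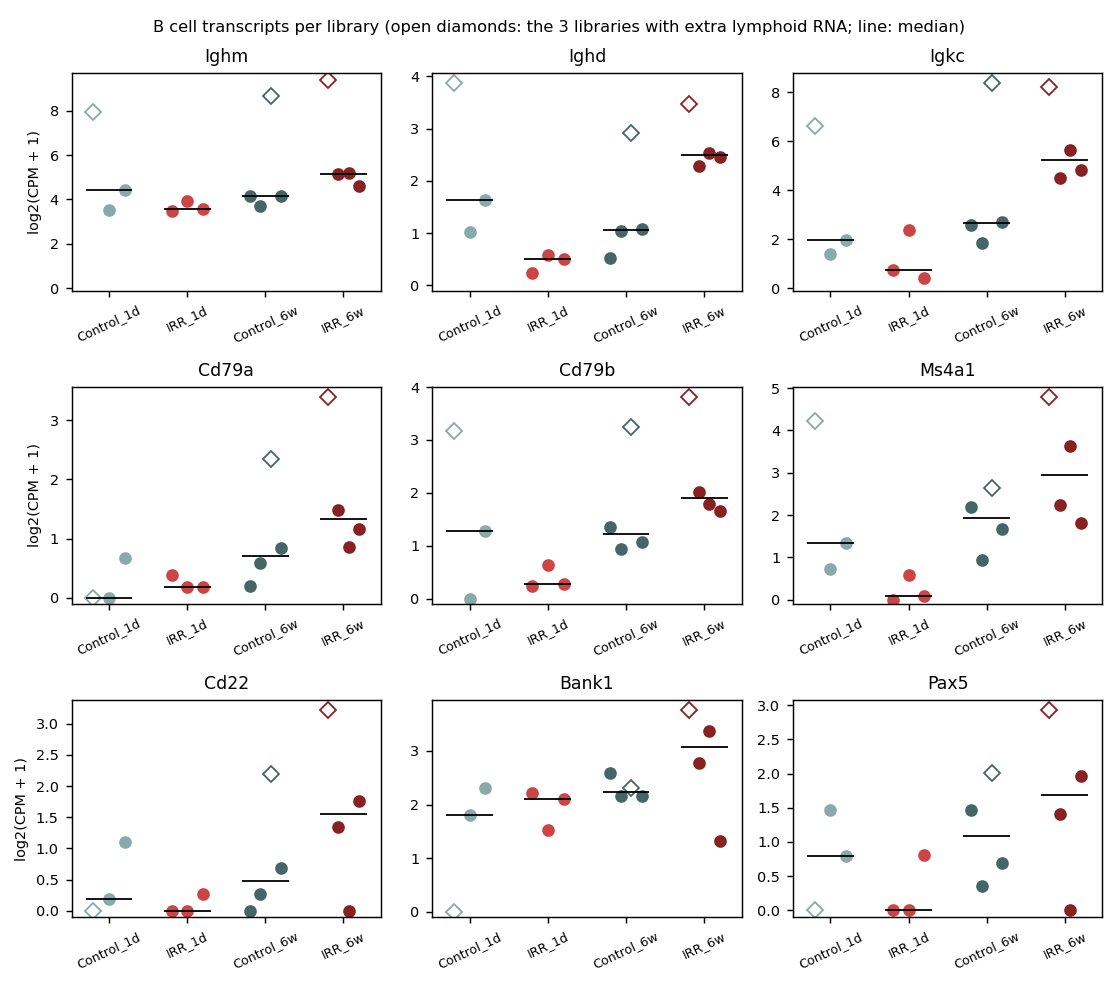
Level of each of the 9 transcripts as log2(CPM + 1) on the y axis, by group on the x axis, with 1 point per library and a line at the group median. Open diamonds mark Control_1d replicate 1, Control_6w replicate 3 and IRR_6w replicate 1, and Ighd (IRR_1d 0.18 to 0.49 CPM) and Ms4a1 (IRR_1d 0 to 0.49 CPM) lie below every Control_1d library.

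At 6 weeks all 9 members had fitted values above 0 and none passed the adjusted edgeR test. The highest library of each group decided what the means showed. Ighm stood at 17.1, 12.0, 400.7 and 17.1 CPM in Control_6w and at 669.3, 34.0, 35.8 and 23.1 CPM in IRR_6w. Apart from the pair of libraries that stand apart, every irradiated library was above every control library in CPM, though not on TMM-scaled CPM, where Control_6w replicate 4 (18.7) exceeded IRR_6w replicate 4 (18.5). The fitted difference was 0.71 both with the 14 libraries (SE 1.26, edgeR adjusted p = 0.907) and with the 11 (SE 0.32, edgeR adjusted p = 0.355), and it was not called. It was -1.88 without IRR_6w replicate 1, 3.30 without Control_6w replicate 3 and -0.15 with the replicate block. Ighd stood at 0.44, 1.06, 6.58 and 1.11 CPM in Control_6w and at 10.1, 3.90, 4.80 and 4.51 CPM in IRR_6w. Only Control_6w replicate 3 reached into the irradiated range (log2 fold change 1.22, SE 0.85, edgeR adjusted p = 0.740, with 11 libraries 1.999, SE 0.74, edgeR adjusted p = 0.263).

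The light chain moved most with the choice of libraries. Igkc stood at 5.01, 2.63, 333.6 and 5.54 CPM in Control_6w and at 295.3, 21.4, 49.2 and 27.5 CPM in IRR_6w. With 14 libraries the difference was 0.14 (SE 1.46, edgeR adjusted p = 0.985). With the 11 libraries it was 2.57 (SE 0.75), with every irradiated library above every control library, and the edgeR adjusted p of 0.127 did not pass the limit.

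The signalling chains, CD20 and the remaining members had fitted values above 0 at 6 weeks with 14 and with 11 libraries, and none of them passed the unadjusted limit in either. Without IRR_6w replicate 1 but with Control_6w replicate 3 kept, Cd79a (-0.18), Cd79b (-0.32) and Pax5 (-0.063) were below 0. Pax5 was also below 0 with limma-voom (-0.17). Cd79a was at 0.15, 0.50, 4.08 and 0.80 CPM in Control_6w and at 9.53, 1.79, 0.82 and 1.25 CPM in IRR_6w. Cd79b was at 1.55, 0.92, 8.49 and 1.11 CPM in Control_6w and at 13.1, 3.07, 2.47 and 2.14 CPM in IRR_6w. In CPM both overlapped between the groups only through Control_6w replicate 3. For Cd79a this rests on 13 counts in Control_6w replicate 4 and 11 in IRR_6w replicate 3, and on TMM-scaled CPM these 2 libraries also overlapped (0.875 and 0.699). Their fitted differences were 1.16 (SE 1.27) and 0.67 (SE 1.12), and with 11 libraries 1.10 (SE 1.24) and 0.81 (SE 1.11). Ms4a1 was at 3.53, 0.92, 5.26 and 2.16 CPM in Control_6w and at 26.8, 3.71, 11.4 and 2.49 CPM in IRR_6w, and the groups overlapped with and without the libraries that stand apart (1.71, SE 1.06, with 11 libraries 1.11, SE 0.99). Cd22, Bank1 and Pax5 overlapped too, with differences of 1.37 (SE 1.63), 0.65 (SE 0.93) and 0.81 (SE 1.53), and with 11 libraries of 1.85 (SE 1.72), 0.19 (SE 0.61) and 0.48 (SE 1.56).

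None of the 9 members was a DEG at 6 weeks, against 0.256% of all genes tested, and none passed the unadjusted limit (3.68% of all genes in the upward direction). The fitted difference was above 0 for all 9, with a median of 0.81 beside -0.09 over all genes. Without IRR_6w replicate 1 it was below 0 for 5 of the 9, at -1.88 for Ighm, -1.44 for Igkc, -0.32 for Cd79b, -0.18 for Cd79a and -0.063 for Pax5. Igkc was also below 0 without Control_6w replicate 1, 2 or 4 (-0.27 to -0.23). With 14 libraries no member had groups that did not overlap (6.63% of all genes, higher). With the 11 libraries 5 members, Ighm, Ighd, Igkc, Cd79a and Cd79b, did not overlap and were higher, against 17.1% of all genes. On TMM-scaled CPM these were 3 members, Ighd, Igkc and Cd79b, against 9.92% of all genes. In the same fit 2 members, Ighd and Igkc, passed the unadjusted limit, against 5.91% of all genes, and no member was a DEG (1.72% of all genes in either direction). Exact permutation p-values of the 9 members over all 8 libraries of 6 weeks ran from 0.114 for Ighd to 0.6 for Pax5. DESeq2 on all libraries called 0 members (2.11% of all genes), and on the groups of 6 weeks alone with an unadjusted p it called Ms4a1 (4.21% of all genes). Red blood cell markers were higher beside them in 6 of 6 genes at 6 weeks (median 2.91, 5 past the unadjusted limit, none called) and in 5 of 6 with 11 libraries (median 1.20). Their summed level was 1930 to 5146 CPM in Control_6w and 74100, 12570, 3025 and 2999 CPM in IRR_6w. T cell genes were lower in 14 of 14 with all libraries (11 past the unadjusted limit, none called) and higher in 9 of 13 with the 11. NK cell genes were higher in 3 of 4 with all libraries and in 4 of 4 with the 11 (median 2.99), none called. Macrophage genes were higher in 9 of 10 with all libraries, none called. With the 11 they were again higher in 9 of 10, with 4 called higher and 1 lower, against 1.72% of all genes. The part of these lists in the members' values was not tested.

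**Figure D3:**
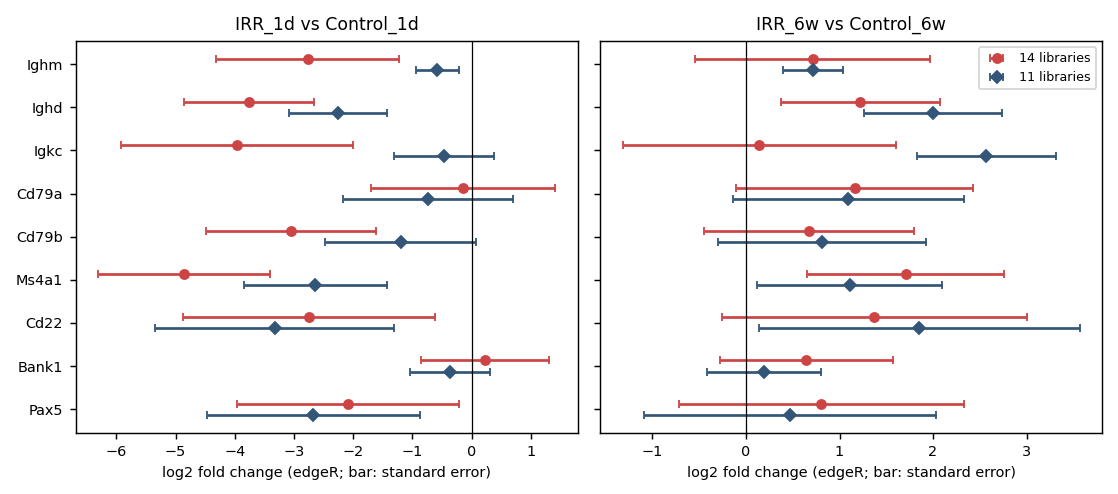
Log2 fold change of each of the 9 transcripts from edgeR (x axis, bar: standard error) at 1 day (left) and 6 weeks (right), from all 14 libraries (circles) and from the 11 left without Control_1d replicate 1, Control_6w replicate 3 and IRR_6w replicate 1 (diamonds). Igkc at 6 weeks lies at 0.14 with 14 libraries and at 2.57 with 11.

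The irradiation effects of the 2 times were then compared directly. The change in the log2 effect from 1 day to 6 weeks was above 0 for all 9 members with edgeR on 14 libraries, with the largest value for Ms4a1 (6.56, SE 1.78, edgeR adjusted p = 0.810) and Ighd (4.98, SE 1.37, edgeR adjusted p = 0.850). No gene of the 16034 tested was called for this change (0%), and 2 members (these 2) passed the unadjusted limit, against 1.98% of all genes. With 11 libraries the values were 3.75 (SE 1.57) and 4.25 (SE 1.11), while Cd22 had the largest value there (5.17, SE 2.65). In that fit 4 members (Ighd, Ighm, Igkc and Ms4a1) passed the unadjusted limit, against 3.46% of all genes. With limma-voom the change was below 0 for Bank1 (-2.04) and Cd79a (-0.022). Without Control_1d replicate 3 it was -0.25 for Bank1 and -3.57 for Cd79a, and Cd79a was at -0.037 without IRR_6w replicate 1. For this change DESeq2 called Ighd and Ms4a1, against 0.223% of all genes. Irradiated hearts were also compared between the times, in a comparison that shares its libraries with those above. IRR_6w exceeded IRR_1d in all 9 members, with 6 of them (Ighm, Ighd, Igkc, Cd79a, Cd79b and Ms4a1) not overlapping, against 10.7% of all genes. At the unadjusted limit 7 members passed, against 3.06% of all genes. No member was called with 14 libraries (0.0374% of all genes). With 11 libraries Igkc was (3.79, SE 0.80, edgeR adjusted p = 0.0331, against 1.8% of all genes). The same 6 did not overlap there (16.0% of all genes), which follows from the 14 libraries, since leaving out libraries cannot bring in an overlap. On TMM-scaled CPM these 6 did not overlap either, against 5.45% of all genes with 14 libraries and 9.11% with 11. DESeq2 on all libraries called Ighd and Ms4a1 (0.966% of all genes), and on these groups alone with an unadjusted p it called 6 members (4.08% of all genes). Within that comparison alone, which holds no controls, age cannot be told apart from time after the dose. The change in irradiation effect, given first, also takes in the control hearts of both times.

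Antibody genes that the members do not include, the variable (V) segments, were counted next. Different B cell clones can use the same segment, so the number of segments detected is not a number of clones. The 216 V segment rows of the heavy, kappa and lambda loci held 2050, 6 and 32 counts in Control_1d and 5, 21 and 3 counts in IRR_1d. They held 7, 37, 1549 and 59 counts in Control_6w and 4208, 263, 331 and 364 counts in IRR_6w. Each irradiated library of 6 weeks was thus above the 3 control libraries other than replicate 3. As log2(CPM + 1) the difference at 6 weeks was 2.54 (exact permutation p = 0.171, adjusted 0.400 over 6 tests) and with 11 libraries 2.89. At 1 day it was -2.46 (exact permutation p = 0.2), and -0.44 without Control_1d replicate 1.

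The number of V segments behind these counts differed widely. With at least 1 count were 24, 2 and 11 segments in Control_1d, 4, 6 and 2 in IRR_1d, 2, 17, 130 and 23 in Control_6w, and 133, 74, 9 and 17 in IRR_6w. IRR_6w replicate 2 therefore held 3.55 counts per detected segment, while replicates 3 and 4 held 36.8 and 21.4, and Control_1d replicate 1 held 85.4. These 3 libraries, with 9 to 24 segments detected, had the largest shares of low genes at 0. A high count per segment was not particular to them, since IRR_6w replicate 1 held 31.6 on 133 segments with 0.11% of low genes at 0, and Control_6w replicate 3 held 11.9. Whether few clones or the way low genes were sampled set this pattern was not tested. The most counted segment held 9.30% of the V counts in Control_6w replicate 3 (Igkv16-104), 17.6% in IRR_6w replicate 1 (Iglv1) and 9.13% in IRR_6w replicate 2 (Iglv1).

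**Figure D4:**
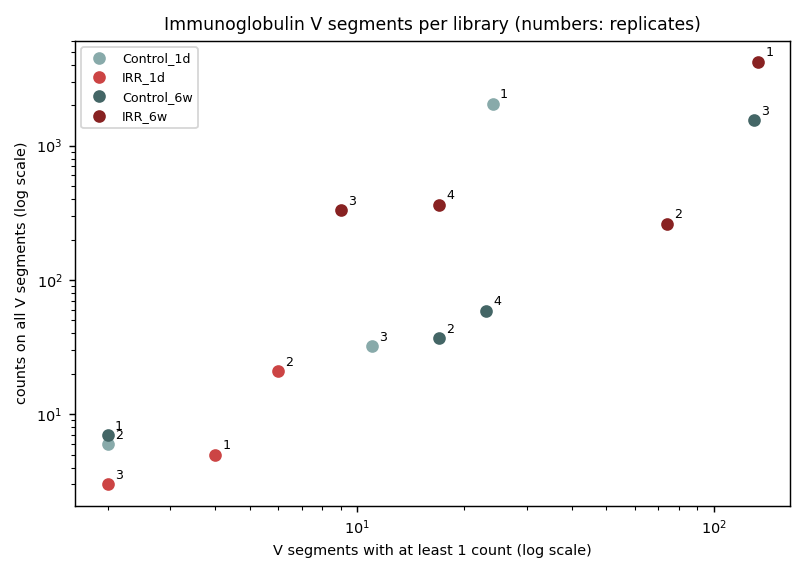
Counts on all immunoglobulin V segments (y axis, log scale) against the number of V segments with at least 1 count (x axis, log scale), with 1 point per library, coloured by group and numbered by replicate. Control_1d replicate 1 (2050 counts on 24 segments) and IRR_6w replicates 3 and 4 (331 on 9, 364 on 17) lie above the course of the other libraries.

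The ratio of Ighm to Ighd counts, which falls as B cells carry more IgD, was 17.9, 10.3 and 9.84 in Control_1d and 55.3, 28.9 and 26.0 in IRR_1d. Every irradiated library was higher, on 3 to 7 Ighd counts each (exact permutation p = 0.1, the smallest possible, adjusted 0.4). Both genes are members, so this ratio is not independent of the lower Ighd already given. At 6 weeks the ratio was 38.7, 11.3, 60.9 and 15.4 in Control_6w and 66.0, 8.72, 7.47 and 5.12 in IRR_6w (exact permutation p = 0.286). Without the libraries that stand apart the irradiated hearts were lower, with no overlap. The lambda share of light chain constant counts ran from 0 to 28.6% with no order by group (exact permutation p = 0.9 at 1 day and 0.571 at 6 weeks).

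Class-switched antibody genes, in which a B cell or plasma cell has exchanged IgM for IgG, IgA or IgE, took a share of the heavy chain constant counts that is given here as a description, since it was computed after the levels had been seen. It was 5.95, 9.71 and 11.6% in Control_1d and 12.9, 11.8 and 16.1% in IRR_1d. At 6 weeks it was 25.2, 35.0, 39.0 and 29.9% in Control_6w and 17.9, 50.5, 56.5 and 62.2% in IRR_6w. IRR_6w replicate 1, with its high Ighm, was the lowest of its group, and the others lay above all controls. Igha, the IgA heavy chain, stood at 2.94, 2.63, 153.4 and 2.22 CPM in Control_6w and at 36.3, 31.0, 52.8 and 34.5 CPM in IRR_6w. All 4 irradiated libraries were thus above the controls other than replicate 3. With 14 libraries the difference was -0.09 (SE 1.07, edgeR adjusted p = 0.987), and with 11 libraries Igha was called higher (3.61, SE 0.64, edgeR adjusted p = 0.0183). Jchain, which joins IgA and IgM into polymers, stood at 0.59, 2.34, 140.7 and 1.42 CPM in Control_6w and at 111.0, 11.6, 9.82 and 24.1 CPM in IRR_6w. It was not called in either fit (with 14 libraries 0.07, SE 1.54, edgeR adjusted p = 0.993, with 11 libraries 3.04, SE 0.73, edgeR adjusted p = 0.0622).

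**Figure D5:**
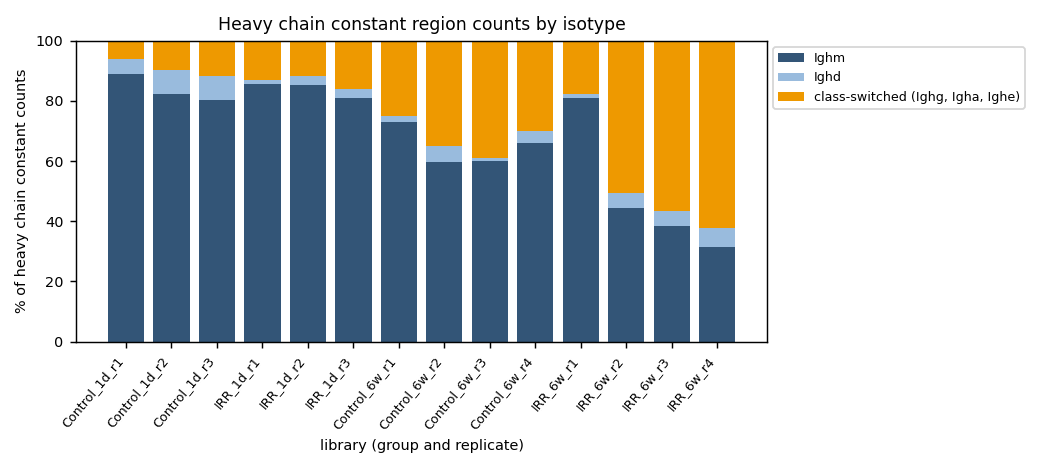
Share of heavy chain constant region counts (y axis, %) from Ighm, Ighd and the class-switched genes Ighg, Igha and Ighe, in each library (x axis). The class-switched share was 50.5 to 62.2% in IRR_6w replicates 2 to 4 and 25.2 to 39.0% in Control_6w.

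Other genes of the B lineage were read from a list of 24, of which 21 were tested. At 1 day 15 were lower and 6 higher, and none was a DEG, with a median of -1.47 beside 0.06 over all genes. Without Control_1d replicate 1 and the other two libraries 17 were tested, of which 10 were lower and 7 higher, with a median of -0.68 beside 0.01. At 6 weeks 17 were higher and 4 lower, again with none called, with a median of 0.76 beside -0.09 over all genes. The smallest p there belonged to Cd180 and Cd72, which B cells share with macrophages. Cd180 was at 0.15, 0.64, 4.67 and 1.54 CPM in Control_6w and at 11.6, 10.7, 13.7 and 7.96 CPM in IRR_6w, with no overlap (2.51, SE 0.75, edgeR adjusted p = 0.222). Cd72 was at 0.59, 1.21, 0.86 and 2.09 CPM in Control_6w and at 4.53, 12.1, 7.50 and 16.7 CPM in IRR_6w (2.82, SE 0.95, edgeR adjusted p = 0.323). With 11 libraries 15 of the 17 tested were higher and 2 lower, with a median of 1.38 beside -0.05 over all genes. Cd180 and Cd72 were the 2 called in that fit, against 1.72% of all genes (3.45, edgeR adjusted p = 0.0307 and 2.88, edgeR adjusted p = 0.0281). The macrophage list of 10 genes moved beside them, at 354.7 to 716.1 CPM in Control_6w and 1443 to 1951 CPM in IRR_6w, and its part in these values was not tested.

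Genes of B cell receptor signalling, many of them shared with other blood cells, had 10 of 19 higher and 9 lower at 1 day, with none called. At 6 weeks 12 were higher and 7 lower. Pik3ap1, an adaptor between the receptor and PI3 kinase, was at 1.40, 2.20, 2.70 and 3.39 CPM in Control_6w and at 8.39, 16.6, 18.5 and 22.1 CPM in IRR_6w. Its groups did not overlap (2.504, SE 0.52, edgeR adjusted p = 0.0610), and it was called with 11 libraries (2.70, SE 0.52, edgeR adjusted p = 0.0246). Btk, the tyrosine kinase of the receptor pathway, was the other of the 2 called there (2.51, SE 0.47, edgeR adjusted p = 0.0222), against 1.72% of all genes, and was not called with 14 (2.17, SE 0.86, edgeR adjusted p = 0.456). MHC class II genes, with which B cells, macrophages and dendritic cells present antigen, were lower in 9 of 9 at 1 day, none called, and higher in 8 of 9 at 6 weeks. H2-Eb1, an MHC class II beta chain, was at 83.8, 80.5, 69.0 and 68.7 CPM in Control_6w and at 152.9, 226.5, 251.6 and 287.5 CPM in IRR_6w, and it rose (1.35, SE 0.25, edgeR adjusted p = 0.0468). The macrophage list moved beside Pik3ap1, Btk and H2-Eb1 as well (354.7 to 716.1 CPM in Control_6w, 1443 to 1951 CPM in IRR_6w). Its part in their values was not tested.

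Genes of the plasma cell and secreted antibody list showed no common direction at 6 weeks (3 of 10 tested higher, 7 lower, none called with 14 libraries). In the list of B cell precursors 2 of 5 were higher and 3 lower, and with 11 libraries 3 higher and 2 lower. Dntt, which adds bases at antibody and T cell receptor junctions, was at 659.0 CPM in Control_6w replicate 3, the library with thymocyte markers, and at 9.73 CPM or less in every other library. In the list of B cell survival and homing signals 2 of 6 were higher and 4 lower, and with 11 libraries 5 higher and 1 lower, none called. Ccl21a, which guides lymphocytes into lymphoid tissue, had the smallest p. It was at 15.75, 0.85, 2.04 and 1.11 CPM in Control_6w and at 0.20, 1.79, 0.07 and 0.42 CPM in IRR_6w, and the groups overlapped (-3.15, SE 1.28, edgeR adjusted p = 0.473). Tnfsf13b, the survival factor BAFF, had a difference of 1.68 (SE 0.93, edgeR adjusted p = 0.650), and Cxcl13, which draws B cells into follicles, one of 3.44 (SE 2.14, edgeR adjusted p = 0.704).

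Across the 14 libraries, the genes outside the list whose log2 level was most like the mean scaled profile of the members were Scgb1a1 (Pearson r = 0.89), Ighv1-26 (0.85), Ciita (0.85), Igha (0.84) and Iglv1 (0.83). The first is the lung gene noted above, at 24.2 CPM in Control_6w replicate 3 and 405.8 CPM in IRR_6w replicate 1 and at most 2.40 CPM elsewhere. Over the 11 libraries, an alternative chosen after seeing the data, none of these was among the 5 most alike, which were Runx3, Nrp2, Myadm, Pbk and Mki67 (r = 0.92 to 0.96). The libraries share depth and quality differences, and these correlations are given as a description. Among the members, each set against the mean of the other 8 over 14 libraries, Igkc was closest (r = 0.82), while Pax5 (0.46) and Bank1 (0.04) were least alike.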

How the data were processed

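The 9 members and all gene lists were chosen with earlier results of these data known, and so were the 3 libraries left out as an alternative. The authors checked the reads with FastQC 0.11.8, trimmed them with Trim Galore 0.6.1, aligned them with STAR 2.5.0a to mm10 and counted them per gene with HTSeq. The deposited values are raw counts of 54532 genes in 14 libraries. Whether the counting used strand is not given in the sources used here. CPM was computed on library totals, from 13336746 to 16837265 counts.

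All 4 groups were fitted in 1 model with edgeR 4.0.16 (R 4.3.3; filterByExpr, TMM, quasi-likelihood test), in which 16034 genes were tested with Benjamini-Hochberg adjustment. DEGs had a fold above 2 or below 0.5 and an adjusted p under 0.05. Alternatives used DESeq2 1.42.0, limma 3.58.1, other scaling and filters, and fewer libraries. Single values were compared by two-sided exact permutation tests, whose p cannot go below 0.1 for 3 against 3 libraries. P-values measure the spread between single mice. Named genes were the members, up to 3 genes of each list with the smallest p at each time, markers that stood apart in a library, and the 5 genes most like the members. A gene that this rule names is not reported here. The code was tested on simulated data.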

Additional observations from a re-analysis of the deposited data

Results flagged for a closer look

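In the groups of 4 libraries, 14 of 22 sets of values had 1 library far from the others by Dixon's test (limit 0.829). All 14 came from Control_6w replicate 3 and IRR_6w replicate 1, which had been named beforehand for extra lymphoid RNA. The test's rate of about 1 in 20 by chance therefore has no bearing here, and the 14 values are a description of those libraries. In Control_6w replicate 3 the values were 400.7 CPM for Ighm, 6.58 CPM for Ighd, 333.6 CPM for Igkc, 4.08 CPM for Cd79a and 8.49 CPM for Cd79b. The summed members stood at 769.2 CPM there and the V segments at 101.9 CPM. In IRR_6w replicate 1 they were 669.3 CPM for Ighm, 10.1 CPM for Ighd, 295.3 CPM for Igkc, 9.53 CPM for Cd79a and 13.1 CPM for Cd79b. The summed members stood at 1052 CPM there and the V segments at 284.5 CPM. Groups of 3 libraries were not tested this way.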

How the results depend on the processing

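With edgeR, 0 members were called in each of the 4 comparisons. DESeq2 on all libraries, which gave 7 members an adjusted p in each comparison, called 1 member at 1 day (0.191% of all genes), 2 for the change between times (0.223%) and 2 for IRR_6w against IRR_1d (0.966%). The unadjusted edgeR p called 2, 2 and 7 in these comparisons (2.23%, 2.86% and 3.85% of all genes). DESeq2 on the 2 groups alone with an unadjusted p called 4 at 1 day (3.1% of all genes), 1 at 6 weeks (4.21%) and 6 for IRR_6w against IRR_1d (4.08%), and leaving out the 3 libraries called 1 for the latter (1.8%). The cause was not tested.

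Directions reversed at 1 day for Cd79a (limma-voom 1.16, replicate block 0.74, leaving out single libraries -0.74 to 4.74) and for Bank1 (-0.36 with 11 libraries, leaving out single libraries -0.36 to 0.90). At 6 weeks Pax5 reversed with limma-voom (-0.17) and Ighm with the replicate block (-0.15). Leaving out single libraries at 6 weeks gave -1.88 to 3.30 for Ighm, -1.44 to 4.15 for Igkc, -0.18 to 2.44 for Cd79a, -0.32 to 1.81 for Cd79b and -0.0628 to 1.34 for Pax5. The lowest values came without IRR_6w replicate 1 and the highest for Ighm and Igkc without Control_6w replicate 3. The change between times reversed for Cd79a (limma-voom -0.022, leaving out single libraries -3.57 to 2.59) and Bank1 (limma-voom -2.04, leaving out single libraries -0.25 to 1.01, and -0.0315 without only Control_6w replicate 3 and IRR_6w replicate 1, an alternative chosen after seeing the data).

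Leaving out single libraries moved the V segment difference at 6 weeks from 2.54 to between 1.61 and 3.82, the highest value without Control_6w replicate 3 (exact permutation p = 0.02857, the smallest that 4 against 3 allows, with the high IRR_6w replicate 1 kept). Control_6w replicate 3 was the only control within the irradiated range, so leaving it out fixed that p, which is given as a description. With all libraries of 6 weeks the exact permutation p was 0.171. The lambda share difference ran from -7.81 to 6.56 percentage points at 1 day and from -5.64 to 0.16 at 6 weeks. Replicate numbers did not pair the libraries (correlations of deviations -0.13, 0.03 and -0.06 at 1 day and -0.36, 0.33, -0.19 and 0.03 at 6 weeks), and with the replicate block 0 members were called in each comparison. When TMM factors were replaced with plain library totals, the median of all genes moved by 0.08, 0.23, 0.15 and 0.32 at 1 day, at 6 weeks, for the change between times and for IRR_6w against IRR_1d, and no member changed direction. Depth limits every member at 0 to 10 counts, and the libraries with many low genes at 0 limit it further.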
